A study of Homo sapiens with 6 samples.

Results

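The 40 genes described here act in the repair of DNA double-strand breaks, and their transcripts were compared between MDA-MB-231 cells with a control hairpin and cells with a hairpin against GPR81, a cell surface receptor for lactate encoded by HCAR1. They were taken by gene symbol from an expression table of 26255 symbols, and the list was chosen because lactate signalling through GPR81 has been linked to the levels of BRCA1, NBN and PRKDC. All 40 were found, and all 40 were among the 14349 genes that were tested. MDA-MB-231 is a human breast cancer cell line of mesenchymal character that lacks the oestrogen and progesterone receptors. The control group (shNT, 3 libraries) carried a scrambled hairpin and the other group (shGPR81, 3 libraries) a hairpin against GPR81. Both hairpins were delivered by lentivirus and both groups were selected with puromycin, so every library comes from a selected line and none from parental cells. The sources used here do not state which of the hairpins against GPR81 the sequenced cells carried, or whether the 3 libraries of a group came from separate cultures, so the p-values measure only the spread between these libraries.

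A double-strand break can be rejoined directly by non-homologous end joining, in which the Ku ring of XRCC5 and XRCC6 binds the ends and recruits the DNA-dependent protein kinase PRKDC. Alternatively the ends are cut back to single strands, and homologous recombination copies the lost information from the sister chromatid with the help of BRCA1, BRCA2, PALB2 and their partners. The kinases ATM and ATR signal the damage, and chromatin proteins around the break and the Fanconi anaemia proteins take part in the choice of pathway and in the repair of crosslinked DNA.

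None of the 40 repair genes passed the test for a difference between shNT and the libraries labelled shGPR81, and most estimates were small. The log2 fold changes lay between -0.29 (RAD51C) and 0.30 (ATM), 25 above 0 and 15 below, with a median of 0.017 against 0.0081 over all tested genes. Calls required a fold change above 1.5 together with an adjusted p under 0.05 (limma on log2(FPKM + 0.1), Benjamini-Hochberg adjustment over all tested genes), where FPKM is fragments per kilobase of transcript, scaled for the size of the library. By this rule 0 members were called, where 2.54% of all tested genes were, and without the fold threshold again 0 members passed, against 5.13%. The lowest adjusted p of a member was 0.107, for LIG1. At an unadjusted p under 0.05, 4 members passed (BARD1, RAD51C, RAD51D and LIG1), which is 10% of them against 19.5% of all tested genes. The 3 libraries of one group lay wholly above or below the 3 of the other for 5 members, lower for RAD51C, LIG3 and ATRIP and higher for RAD51D and LIG1 in the libraries labelled shGPR81, where 25.6% of all tested genes had groups without overlap. For 39 of the 40 members (97.5%) the 95% interval of the fold change lay within 1.5-fold in either direction, and the exception was ATM. The same held for 69.8% of all tested genes. Those genes reach down to the filter of 0.1 FPKM, while the lowest member mean was 3.18 FPKM. The median standard error was 0.103 over all tested genes and 0.082 over the members, so the 2 shares are not of genes at like levels.

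**Figure D1:**
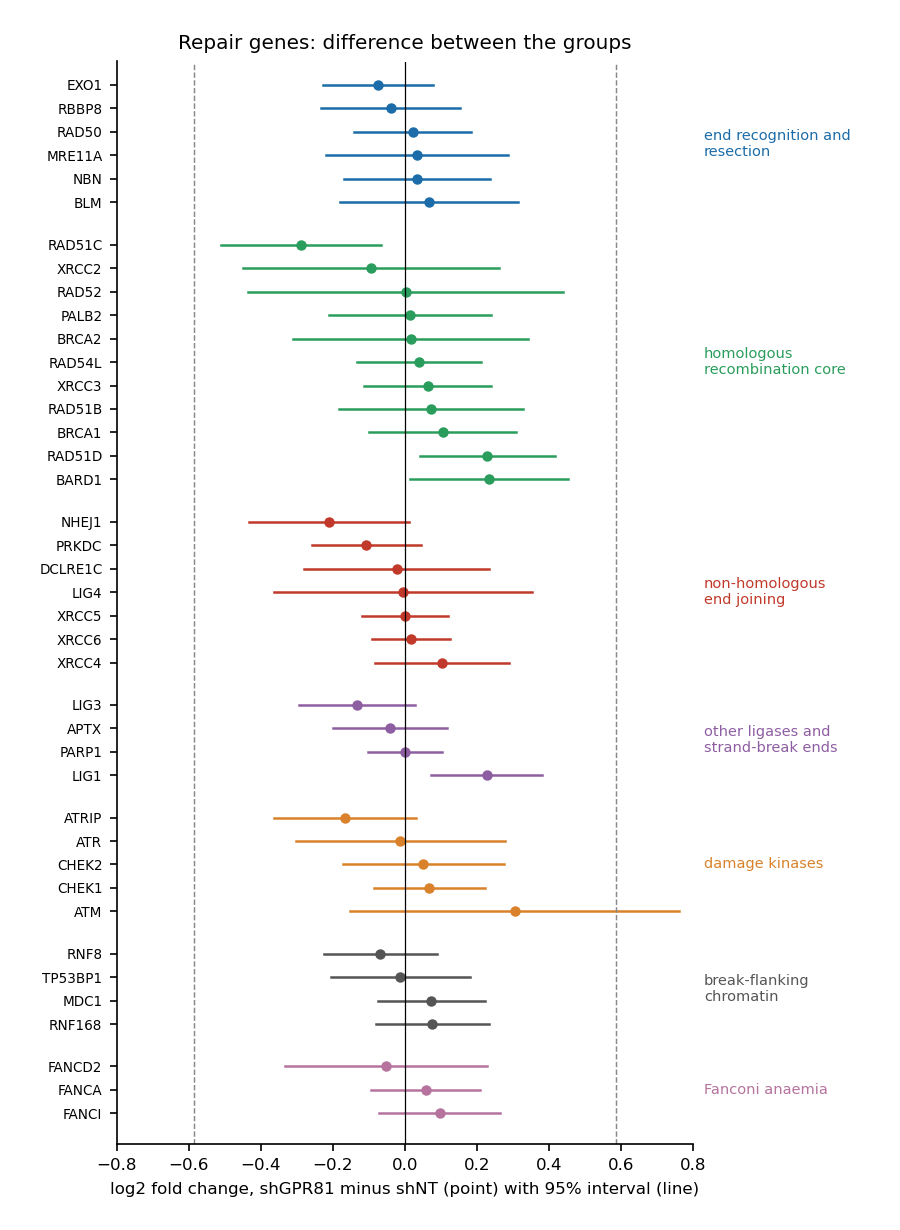
Log2 fold change of each of the 40 repair genes (x axis, shGPR81 minus shNT) with its 95% interval from limma, grouped by role; dashed lines mark a fold change of 1.5. The interval of ATM is the 1 that crosses a dashed line, and those of BARD1, RAD51C, RAD51D and LIG1 leave out 0.

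HCAR1, the gene of GPR81, was at 0.968, 1.02 and 1.36 FPKM in shNT and at 0.978, 0.891 and 0.396 FPKM in the libraries labelled shGPR81. The groups overlapped, and shGPR81 replicate 3 was the lowest of the 6 libraries. It differed by -0.57 on the log2 scale (SE 0.31, adjusted p = 0.38 with limma). An exact permutation test, two-sided, returned p = 0.2, and the smallest p possible with 3 libraries in each group is 0.1. The estimate was -0.22 without shGPR81 replicate 3 and -0.28 with a pseudocount of 1. These values stand for 16 to 52 reads. A fall of the targeted transcript was thus not shown at this depth, and the groups are named below by their labels. Sequencing depth was not given with the FPKM. Where a gene's values are whole multiples of 1 step, reads could be recovered, and relative depths were then 1 to 1.07 over the 6 libraries. Of 8 marker genes of MDA-MB-231 such as VIM, 7 were above 1 FPKM in every library and SPARC was not. Of 10 luminal markers, 6 were above 1 FPKM in every library, and ESR1, PGR and CDH1 were listed at 0 in all 6. The summed level of the MDA-MB-231 markers was 4114 to 4939 FPKM in shNT and 4910 to 5481 FPKM in the libraries labelled shGPR81. The luminal list summed to 88.7 to 117 FPKM and 121 to 141 FPKM, and a list of 6 basal epithelial markers to 1.30 to 1.59 FPKM and 2.08 to 2.34 FPKM. Single genes carried the larger sums, and other genes of the same lists went the other way. VIM was at 3211 to 3937 FPKM in shNT and 3960 to 4443 FPKM in the libraries labelled shGPR81, while CD44 (173 to 180 against 149 to 158 FPKM) and TGFBI (70.1 to 78.2 against 55.7 to 57.8 FPKM) were lower there without overlap. Of the luminal genes, KRT19 was at 65.4 to 88.8 FPKM against 105 to 123 FPKM, and TFF1 was at 6.23 to 8.67 FPKM against 0.238 to 0.483 FPKM. KRT5, KRT14, KRT17 and DSG3 of the basal list were under 0.1 FPKM in every library. TP63 of that list was at 0.108 to 0.116 FPKM in shNT and 0.282 to 0.409 FPKM in the libraries labelled shGPR81. COL17A1, its remaining gene, was at 1.13 to 1.46 FPKM against 1.76 to 1.95 FPKM. The part of these shifts in the results was not tested. In whole-culture RNA, a change in the share of cells that make a transcript and a change in the level per cell cannot be told apart.

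The levels of the repair genes spanned a wide range in these cells, from 3.18 FPKM for RAD52 to 411 FPKM for XRCC6 as means of the 6 libraries. XRCC6, the smaller Ku subunit, was at 407, 399 and 419 FPKM in shNT and at 405, 414 and 422 FPKM in the libraries labelled shGPR81. XRCC5, the larger Ku subunit, had 317 to 340 FPKM, below XRCC6 in every library. PARP1, which senses strand breaks and marks proteins there with poly(ADP-ribose), followed with 149 to 156 FPKM and PRKDC with 49.0 to 59.7 FPKM. The next gene, LIG1, was at 36.4 to 48.3 FPKM, and the remaining 35 members had lower means. RAD52, a protein that anneals single strands, was the lowest member, at 4.10, 2.96 and 2.54 FPKM in shNT and 3.68, 2.83 and 2.97 FPKM in the other group. Its neighbours BRCA2 (3.03 to 4.17 FPKM) and RAD51B (3.48 to 4.42 FPKM) overlapped it in range. By role, the median of the mean levels was 19.1 FPKM over the 7 end-joining genes and 6.65 FPKM over the 11 genes of the recombination core.

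**Figure D2:**
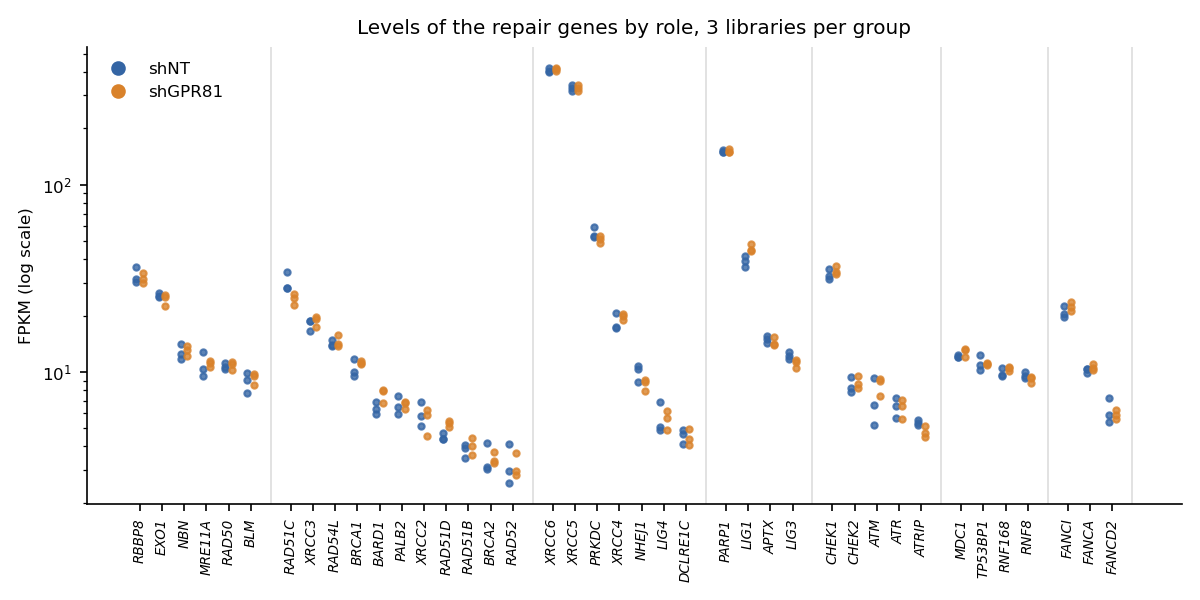
Level of each repair gene in FPKM (y axis, log scale), grouped by role and ordered by level within a role; each point is 1 library, blue for shNT and orange for shGPR81. XRCC6 and XRCC5 stand highest, and the points of both groups lie close together for most genes.

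Genes whose proteins work in one complex are set side by side by level, since FPKM is scaled by transcript length. FPKM is not scaled for the share of G and C bases (GC content), which was 40.6% for RAD51C and 62.5% for XRCC3. An annotated protein-coding gene overlaps RAD50 on the same strand over 90061 bases and could share its reads. The levels are therefore only roughly comparable between genes. The MRN complex, which binds broken ends and starts their resection, is built from MRE11A, RAD50 and NBN. Their means over the 6 libraries were 10.9, 10.8 and 12.9 FPKM, and MRE11A overlapped both partners in range while NBN lay above RAD50 in all 6 libraries. The related recombination genes RAD51B, RAD51C, RAD51D, XRCC2 and XRCC3 were less even. RAD51C was the highest at a mean of 27.4 FPKM and XRCC3 followed at 18.4 FPKM. XRCC2, RAD51D and RAD51B were lower, at 5.78, 4.89 and 3.92 FPKM. RAD51C protein is shared by both known complexes of this group, and XRCC3 is its partner in the smaller one. The final end-joining step needs LIG4 with its cofactor XRCC4 and NHEJ1, and their means were 5.61, 19.1 and 9.30 FPKM.

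Promoter sequences are shown for RAD51C, RAD51D and LIG1, the members whose groups did not overlap and whose unadjusted p was under 0.05. The windows are those of RefSeq on GRCh38.p14, each of 300 bases around an annotated start, most of them upstream of it, and are given 5′ to 3′ on the strand of the gene. They lie at chr17:58692323-58692622 on the plus strand for RAD51C, chr17:35119709-35120008 on the minus strand for RAD51D and chr19:48170295-48170594 on the minus strand for LIG1. Capitals mark a match to one of 5 searched motifs.

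RAD51C: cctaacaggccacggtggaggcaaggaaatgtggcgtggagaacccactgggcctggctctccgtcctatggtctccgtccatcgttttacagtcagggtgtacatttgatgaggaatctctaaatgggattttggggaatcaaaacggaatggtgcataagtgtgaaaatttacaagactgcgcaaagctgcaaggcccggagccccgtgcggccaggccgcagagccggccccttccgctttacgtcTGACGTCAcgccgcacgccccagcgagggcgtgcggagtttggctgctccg
RAD51D: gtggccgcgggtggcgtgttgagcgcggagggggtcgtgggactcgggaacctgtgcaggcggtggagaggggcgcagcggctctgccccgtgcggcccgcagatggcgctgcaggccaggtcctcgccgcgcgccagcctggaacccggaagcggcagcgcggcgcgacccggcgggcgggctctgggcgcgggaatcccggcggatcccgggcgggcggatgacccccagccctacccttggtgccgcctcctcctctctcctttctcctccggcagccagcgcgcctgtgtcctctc
LIG1: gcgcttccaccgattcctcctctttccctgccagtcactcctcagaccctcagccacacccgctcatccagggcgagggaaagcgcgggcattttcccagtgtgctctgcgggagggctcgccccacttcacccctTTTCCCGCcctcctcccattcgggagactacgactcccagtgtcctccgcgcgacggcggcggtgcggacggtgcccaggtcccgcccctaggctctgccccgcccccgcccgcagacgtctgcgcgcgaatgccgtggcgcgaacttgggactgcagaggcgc

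The motifs were searched on both strands in all 35116 promoter windows of that table, which held windows for 36 of the 40 members (55 windows in all, since some genes have several starts). The cAMP response element TGACGTCA, which was added to the search after the values were seen, lay across 1 of the 2 annotated starts of RAD51C, the one shown, and upstream of the other. It was found in 12.7% of the member windows (RAD51C, EXO1, LIG4, APTX and XRCC2) and in 1.85% of all windows. The E2F motif TTTCCCGC, marked in the LIG1 promoter, was found in 5.45% of the member windows (LIG1, FANCD2 and XRCC2) and in 1.63% of all windows. TTTGGCGC, another E2F motif, was found in XRCC6 among the members and in 0.652% of all windows. The letters CCAAT were found in 47.3% of the member windows against 34.6%, and TTTGAA, the core of the cell cycle gene homology region, in 3.64% (ATM and MDC1) against 15.2%. The RAD51D window held none of the 5 motifs. These are matches of letters in windows of 300 bases, and several windows of 1 gene overlap.

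Among the genes of end recognition and resection, MRE11A, RAD50, NBN, RBBP8, EXO1 and BLM, the log2 fold changes were between -0.07 and 0.07, with a median of 0.027. NBN, the MRN subunit that recruits ATM, lies on chromosome 8 and was at 14.0, 12.4 and 11.7 FPKM in shNT and at 12.1, 13.1 and 13.7 FPKM in the libraries labelled shGPR81. The highest and the lowest of the 6 values were both in shNT. Its estimate was a log2 difference of 0.03 (SE 0.086, 95% interval -0.17 to 0.24, adjusted p = 0.88 with limma), and the exact two-sided permutation test gave p = 0.8. Leaving out shNT replicate 3 or shGPR81 replicate 3 turned its sign (-0.02 and -0.0068). The estimate furthest from 0 in this role was that of EXO1, a nuclease that extends resection. EXO1 was at 26.5, 25.6 and 25.3 FPKM in shNT and at 22.5, 25.2 and 25.7 FPKM in the other group, so shGPR81 replicate 1 was low and the groups overlapped. It differed on the log2 scale by -0.07 (SE 0.066, adjusted p = 0.62), and by -0.015 without shGPR81 replicate 1. MRE11A (0.03), RAD50 (0.02), BLM (0.07) and RBBP8 (-0.04), which encodes the resection factor CtIP, had an adjusted p of 0.80 or more.

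The 11 genes of the recombination core held 9 log2 fold changes above 0 and 2 below, with a median of 0.040. BRCA1, which promotes resection and recombination, lies at chr17:41196312-41322262 of GRCh37 on the minus strand. It was at 11.7, 9.94 and 9.56 FPKM in shNT and at 11.4, 11.0 and 11.1 FPKM in the libraries labelled shGPR81. The 3 values of the second group lay within the range of the first. The log2 fold change of BRCA1 was 0.10 (SE 0.087, 95% interval -0.10 to 0.31, adjusted p = 0.60 with limma), with p = 0.4 in the exact two-sided permutation test. It was 0.19 (adjusted p = 0.116) without shNT replicate 1 and 0.046 without shNT replicate 3. BARD1, the partner of BRCA1 in a ubiquitin ligase, was at 6.92, 6.34 and 5.99 FPKM in shNT and at 7.87, 7.99 and 6.84 FPKM in the other group. Its ranges met only between shNT replicate 1 and shGPR81 replicate 3, and it differed by 0.23 on the log2 scale (SE 0.094, adjusted p = 0.23). BRCA2 and PALB2, which work together in strand invasion, were at log2 fold changes of 0.02 and 0.01, with intervals of -0.31 to 0.34 and -0.21 to 0.24.

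RAD51C gave the lowest estimate of all 40 members. The gene lies at chr17:56769934-56812972 of GRCh37 on the plus strand. No other annotated protein-coding or long non-coding RNA gene overlaps it, and other gene types were not searched. It was at 34.4, 27.96 and 28.1 FPKM in shNT and at 22.9, 26.2 and 24.8 FPKM in the libraries labelled shGPR81. All 3 of the second group were below all 3 of the first, and shNT replicate 1 stood apart at the high end. The groups differed by -0.29 on the log2 scale (SE 0.095, 95% interval -0.51 to -0.068, adjusted p = 0.145 with limma), and by -0.19 without shNT replicate 1. RAD51D, on chromosome 17 as well (chr17:33419240-33448541 of GRCh37, minus strand), differed in the other direction. It was at 4.70, 4.40 and 4.37 FPKM in shNT and at 5.46, 5.07 and 5.31 FPKM in the libraries labelled shGPR81, without overlap. On the log2 scale its difference was 0.23 (SE 0.080, adjusted p = 0.168), and an annotated read-through gene covers RAD51D on the same strand, so the 2 could share reads. The related genes XRCC2 (-0.09), XRCC3 (0.06) and RAD51B (0.07), the annealing protein gene RAD52 (0.0015) and the motor gene RAD54L (0.04) had an adjusted p of 0.73 or more.

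**Figure D3:**
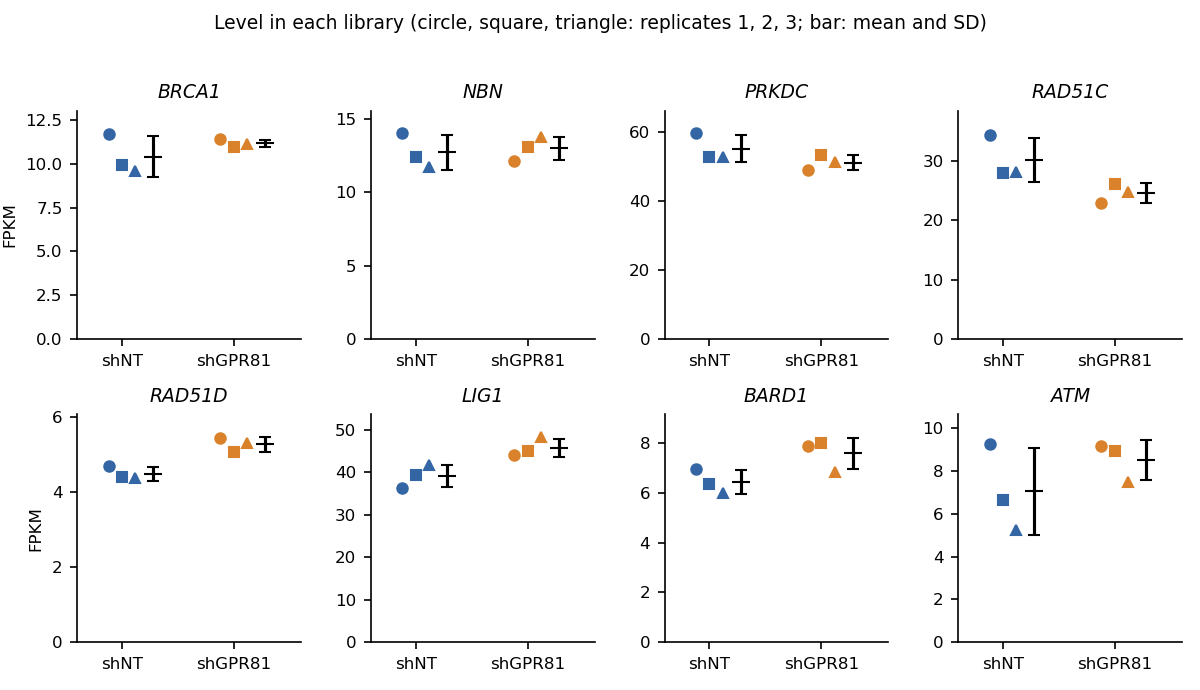
FPKM of 8 repair genes (y axes, starting at 0) in each of the 3 shNT and 3 shGPR81 libraries, with the mean and SD of each group beside the points. The groups do not overlap for RAD51C, RAD51D and LIG1, and the 3 shNT points of ATM spread over 5.24 to 9.26 FPKM.

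Of the end-joining genes, 4 of 7 log2 fold changes were below 0 and the median was -0.0053. PRKDC, the catalytic subunit of the DNA-dependent protein kinase, lies on chromosome 8 and was at 59.7, 52.97 and 52.9 FPKM in shNT. The libraries labelled shGPR81 had 49.0, 53.3 and 51.3 FPKM. shNT replicate 1 was high, and shGPR81 replicate 2 lay above the other 2 shNT libraries. Its estimate was -0.11 on the log2 scale (SE 0.065, 95% interval -0.26 to 0.045, adjusted p = 0.44 with limma), and the exact two-sided permutation test gave p = 0.3. Without shNT replicate 1 the estimate was -0.049. NHEJ1, which encodes the ligation cofactor XLF, was at 8.87, 10.4 and 10.7 FPKM in shNT and at 7.93, 9.01 and 8.86 FPKM in the other group. It was the lowest estimate of this role at -0.21 (SE 0.095, adjusted p = 0.278), its groups overlapped through shNT replicate 1, and a read-through gene covers it on the same strand. Reads were recovered for it, 222 to 281 per library. The Ku genes had the narrowest intervals of this role, -0.12 to 0.12 for XRCC5 and -0.091 to 0.13 for XRCC6. LIG4, the ligase that seals the joined ends (-0.36 to 0.35), and DCLRE1C, which encodes the Artemis nuclease (-0.28 to 0.23), had wider ones, and XRCC4 was at a log2 fold change of 0.10 (-0.084 to 0.29).

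LIG1, the ligase that joins Okazaki fragments and also serves in break repair, was the member nearest to the threshold. It lies at chr19:48618702-48673860 of GRCh37 on the minus strand, where 2 annotated long non-coding RNAs that the expression table does not list overlap it on the opposite strand. LIG1 was at 36.4, 39.3 and 41.7 FPKM in shNT and at 44.2, 45.0 and 48.3 FPKM in the libraries labelled shGPR81. All 3 of the second group were above all 3 of the first. The difference was 0.23 on the log2 scale (SE 0.066, 95% interval 0.074 to 0.38, adjusted p = 0.107 with limma). LIG3, which seals single-strand breaks and mitochondrial DNA, was at 11.8, 12.8 and 12.1 FPKM in shNT and at 10.5, 11.3 and 11.6 FPKM in the other group, again without overlap. Its estimate was a log2 difference of -0.13 (SE 0.069, adjusted p = 0.352), and RFFL and CCT6B overlap it on the opposite strand. APTX, which clears failed ligation ends, was at -0.04 and PARP1 at 0.00073, with an interval of -0.10 to 0.10.

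ATM, the kinase that signals double-strand breaks, had the highest estimate and the widest interval of the 40 members. It lies at chr11:108093771-108239829 of GRCh37 on the plus strand and was at 9.26, 6.62 and 5.24 FPKM in shNT and at 9.17, 8.93 and 7.45 FPKM in the libraries labelled shGPR81. The spread was within shNT, where the highest library was 1.77-fold above the lowest. The estimate was 0.30 on the log2 scale (SE 0.196, 95% interval -0.15 to 0.76, adjusted p = 0.47 with limma). It became 0.52 (adjusted p = 0.0626) without shNT replicate 1 and 0.11 without shNT replicate 3. Its FPKM stand for 1653, 1211 and 936 reads in shNT and 1754, 1686 and 1408 reads in the other group. The coefficient of variation among the shNT libraries was 29.0%, where counting alone gives 2.81%. ATRIP, the partner that brings ATR to single-stranded DNA, was at 5.22, 5.54 and 5.36 FPKM in shNT and at 4.71, 4.50 and 5.13 FPKM in the other group, without overlap. It differed on the log2 scale by -0.17 (SE 0.084, adjusted p = 0.340), and TREX1 overlaps it on the same strand, so the authors' counting could have split reads between them. ATR was at -0.01, and the checkpoint kinase genes CHEK1 and CHEK2 were at 0.07 and 0.05.

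The 4 chromatin genes had log2 fold changes between -0.07 and 0.08. RNF168, a ubiquitin ligase that marks histones for TP53BP1, was at 10.5, 9.65 and 9.51 FPKM in shNT and at 10.6, 10.5 and 10.1 FPKM in the libraries labelled shGPR81. Its groups overlapped at shNT replicate 1, and its log2 difference of 0.08 (SE 0.067, adjusted p = 0.62 with limma) was the furthest from 0 of the 4. MDC1, the scaffold on phosphorylated H2AX, was at 0.07, RNF8, which acts before RNF168, at -0.07 and TP53BP1 at -0.01. Of the Fanconi anaemia genes, FANCI was at 22.6, 20.4 and 19.8 FPKM in shNT and at 23.5, 22.3 and 21.1 FPKM in the other group. FANCI and FANCD2 encode the paired subunits of a clamp that closes on DNA. The log2 fold change of FANCI was 0.10 (SE 0.072, adjusted p = 0.54), that of FANCD2 was -0.05, and that of FANCA, a subunit of the ligase complex that modifies them, was 0.06.

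The control libraries were not alike for these genes. shNT replicate 1 was the highest of its group for 29 of the 40 members, against 39.97% of all tested genes. shNT replicate 3 was the highest for 7 members, against 36.3% of all tested genes. It was the lowest for 24 members, and the share of all tested genes for this is not given here. Relative to the shNT mean, the median of the members was 0.11 in shNT replicate 1, -0.021 in replicate 2 and -0.056 in replicate 3 on the log2 scale. In the libraries labelled shGPR81 it was 0.020, 0.037 and 0.0072. The median over all tested genes lay between -0.0026 and 0.011 in all 6 libraries. The median log2 fold change of the members followed which control was left out. It was 0.070 without shNT replicate 1 and -0.026 without shNT replicate 3. Without shNT replicate 1, 9 members had an unadjusted p under 0.05. The share of all tested genes in that fit is not given here, and with all 6 libraries it was 19.5%. No member reached an adjusted p under 0.05 in any fit of the deposited values that left out 1 library.

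This difference between control libraries went with the GC content of the transcripts. Across the 40 members, the log2 difference between shNT replicate 1 and replicate 3 correlated with GC content at r = -0.60 (Spearman's rho = -0.68), and across 10952 expressed genes (mean of 1 FPKM or more) at r = -0.62 (rho = -0.70). The same difference also correlated, less strongly, with transcript length. That correlation was r = 0.30 (rho = 0.23) across the members and r = 0.30 (rho = 0.39) across the 10952 expressed genes. These points are genes of the same 2 libraries and are not independent. The members had a median GC content of 43.98%, against 47.9% for those genes. In the 20 members with the lower GC content the median difference was 0.27, and shNT replicate 1 was above replicate 3 in 18. In the 20 with the higher GC content the median was 0.087, with 11 above. ATM had the largest difference of the members, and NHEJ1 the lowest.

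**Figure D4:**
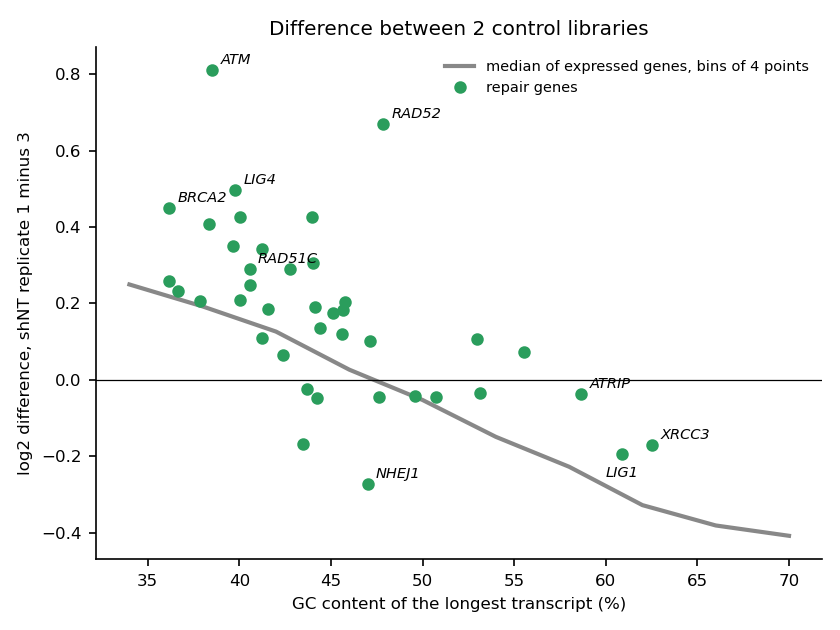
Log2 difference between shNT replicate 1 and shNT replicate 3 (y axis) against the GC content of the longest protein-coding transcript in percent (x axis) for the 40 repair genes (green points) and as medians over expressed genes in bins of 4 percentage points (grey line). Both fall with GC content, and most repair genes lie above 0.

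A fit was added after the values were seen in which each library's trend with GC content was taken off before the test. No correction was made for transcript length. The median SD of the members on the log2 scale was then 0.079 in place of 0.109 in shNT and 0.078 in place of 0.081 in the libraries labelled shGPR81. Some members kept a wide spread within shNT. ATM was at corrected log2 levels of 3.12, 2.78 and 2.51 there, and RAD52 at 2.06, 1.61 and 1.40. In this fit 2 members passed an adjusted p of 0.05, which is 5% of them, where 13.8% of the 12723 genes with a GC value did, and neither reached a fold change of 1.5. RAD51C was at corrected log2 levels of 5.02, 4.84 and 4.90 in shNT and 4.50, 4.68 and 4.67 in the other group, lower with a corrected log2 difference of -0.30 (SE 0.065, adjusted p = 0.0126 with limma). It passed with each library left out in turn in this fit, at an adjusted p of 0.0184 to 0.0490. LIG1 was at 5.37, 5.24 and 5.29 in shNT and 5.47, 5.54 and 5.53 in the other group, higher by 0.22 (SE 0.046, adjusted p = 0.0128). LIG1 did not pass without shNT replicate 2 (adjusted p = 0.0621) or shGPR81 replicate 2 (0.0588). Without shNT replicate 1, ATM (0.44, adjusted p = 0.0206 with limma) and NHEJ1 (-0.30, adjusted p = 0.0306) also passed. The share of all genes that passed in that fit is not given here, so these 2 cannot be set against a background. BRCA1 (0.10, adjusted p = 0.38), NBN (0.01, 0.94) and PRKDC (-0.11, 0.184) did not pass after the correction, though the corrected groups of PRKDC no longer overlapped and its 95% interval ran from -0.22 to 0.00097. The corrected groups did not overlap for 10 members (BARD1, RAD51C, RAD51D, XRCC4, PRKDC, LIG1, LIG3, ATRIP, CHEK1 and RNF168), 25% of them against 32.4% of the genes in this fit.

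Other genes of the same pathways were taken from a separate list. Of 75 further repair genes, 74 were tested and 1 passed an adjusted p of 0.05 over all tested genes, which is 1.35% against 5.13% of all tested genes. The median log2 fold change of the list was 0.042, with 28 below 0 and 46 above. That gene was ZSWIM7, which acts with SWSAP1 in recombination. It rose from 6.99, 7.80 and 7.38 FPKM in shNT to 9.26, 9.04 and 10.1 FPKM in the libraries labelled shGPR81 (log2 fold change 0.35, SE 0.078, adjusted p = 0.0472 with limma). With any 1 of the 6 libraries left out, its adjusted p was 0.0595 to 0.164. SWSAP1 itself was low, at 0.566 to 1.54 FPKM, with a log2 fold change of -0.59 (SE 0.26) that did not pass. MCM8, a helicase subunit on chromosome 20, was at 26.0, 21.98 and 20.1 FPKM in shNT and 17.7, 16.8 and 16.1 FPKM in the other group, a log2 fold change of -0.42 (adjusted p = 0.0570). MCM8 passed without shNT replicate 1 (adjusted p = 0.0353 with limma) or shNT replicate 3 (0.0341), and with the replicate number as a block (0.0327). After the GC correction 5 of these genes passed, which is 6.76% against 13.8%, with MCM8 lower and ZSWIM7, C9orf142, H2AFX and FAM175A higher.

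Many recombination genes are made in S and G2 phase, so markers of proliferation were set beside them. Of 40 tested, 4 passed an adjusted p of 0.05, all lower in the libraries labelled shGPR81 and all on chromosome 20, and 0 of the 35 on other chromosomes did (2 at an unadjusted p under 0.05). The 4 are 10% of the list, against 5.13% of all tested genes. The median log2 fold change was 0.0034, and 0.040 without chromosome 20. PCNA, the sliding clamp of replication, fell from 241, 222 and 222 FPKM to 166, 166 and 172 FPKM (log2 fold change -0.44, SE 0.051, adjusted p = 0.0038 with limma). AURKA and TPX2, a mitotic kinase and its activator, fell by 0.33 and 0.34 on the log2 scale (adjusted p = 0.0068 and 0.011). E2F1, a transcription factor of S phase entry, fell by 0.43 (adjusted p = 0.033). E2F1 passed only without shNT replicate 1 among the fits that left out 1 library and otherwise had an adjusted p of 0.0704 to 0.129, and TPX2 did not pass when shGPR81 replicate 1, shGPR81 replicate 2 or shNT replicate 2 was left out (0.0555 to 0.0643). After the GC correction 7 of the 40 passed, which is 17.5% against 13.8%. Besides the 4, these were UBE2C on chromosome 20 (-0.25, adjusted p = 0.0138 with limma) and 2 genes of other chromosomes, RRM2, a subunit of ribonucleotide reductase (-0.20, adjusted p = 0.0152), and ORC1, a subunit of the origin recognition complex (0.19, adjusted p = 0.0419). None of the 40 repair genes lies on chromosome 20.

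**Figure D5:**
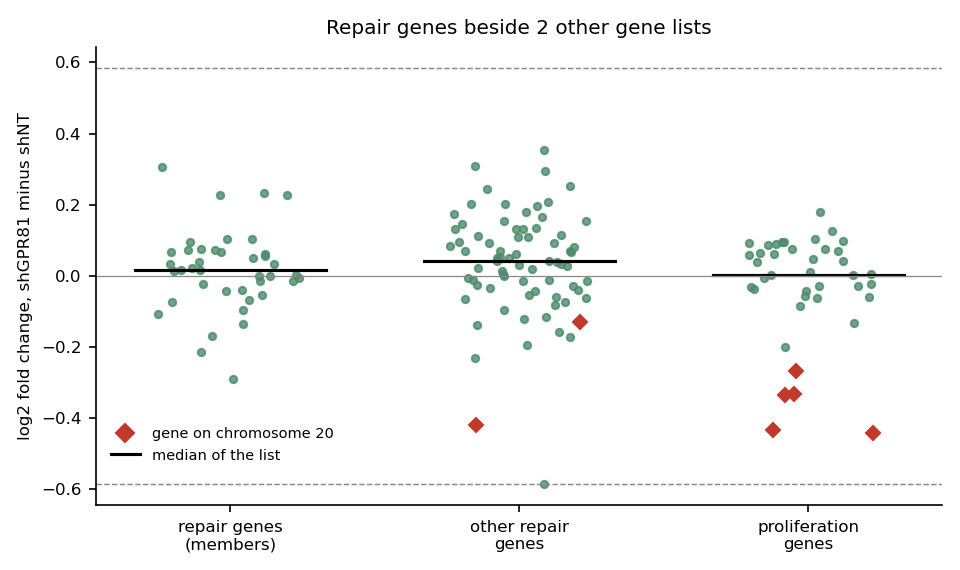
Log2 fold change (y axis, shGPR81 minus shNT) of each tested gene of the 40 repair genes and of 2 other lists, further repair genes and proliferation genes; red diamonds are genes on chromosome 20, black bars are medians and dashed lines mark a fold change of 1.5. The medians lie between 0.0034 and 0.042, and the 5 proliferation genes on chromosome 20 are all below 0.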

How the data were processed

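RNA-seq of 6 libraries was used, 3 per group, with groups and replicate numbers from the sample titles. TruSeq stranded mRNA libraries were read as 75-base single-end reads. The submitters' processing notes name TopHat2 2.0.13, Bowtie2 2.2.3, SAMtools 0.1.19 and Cuffnorm 2.2.1. The study's methods give the human genome (hg19), while the deposited labels give a mouse build; the cells are human, and the human build was taken. The annotation, and whether counting used strand, are not given in the sources used here, so reads of overlapping genes on opposite strands may be mixed. The authors deposited FPKM per gene symbol.

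Groups were compared with limma 3.58.1 (lmFit, eBayes with trend) in R 4.3.3 on log2(FPKM + 0.1). The fit took the 14349 genes that reached 0.1 FPKM in 3 or more of the libraries and had no block, with Benjamini-Hochberg adjustment over all of them. The pseudocount understates changes of low genes. Thresholds were an adjusted p of 0.05 and a fold change of 1.5, as in the study. The test was checked on simulated data, with changes larger than those of the members and without a trend with GC content. That check does not cover differences as small as those reported here. BRCA1, NBN, PRKDC and HCAR1 also had an exact permutation test. The members, gene lists, motifs and tests were chosen with earlier results of these data known. Values in every library are given for BRCA1, NBN and PRKDC, for the gene with the largest absolute log2 fold change in each role, for members whose groups did not overlap, for the highest and lowest levels and for HCAR1. Genes of other lists are named at an adjusted p under 0.05, in the fit of the deposited values or after the GC correction. BARD1, SWSAP1 and the marker genes given with values were named after their values were seen. The results of a further gene list are not reported here.

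GC content is that of the longest protein-coding GENCODE release 44 transcript on GRCh37 of each gene. Genes without such a transcript had no value and were left out of the fit with GC correction. The trend with GC content was fitted per library with a smoothing spline. Gene coordinates are those of that annotation, and promoters those of RefSeq on GRCh38.p14. Reads were recovered for 10 of the 40 members, those whose 6 FPKM were whole multiples of 1 step within a relative tolerance of 5e-05 after scaling each library; counting error from them leaves out other sources of error, and the depth of the other members is unknown.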

Additional observations from a re-analysis of the deposited data

How the results depend on the processing

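No repair gene reached an adjusted p under 0.05 with the replicate number as a block, filters of 1 FPKM or none, pseudocounts of 1 or 0.01, median centring, quantile normalization, limma's treat or any library left out, and the lowest adjusted p over these settings was 0.0592 (quantile normalization); 2 reached it after the GC correction, which was chosen after the data were seen. The log2 fold change of NBN was -0.024 to 0.11 over all settings and was negative without shNT replicate 3 (-0.024) or shGPR81 replicate 3 (-0.0068). Replicate numbers were not taken to pair the libraries, since the deviations of same-numbered libraries correlated at 0.120, 0.022 and 0.0058 across genes. With the replicate block 6 repair genes in place of 4 had an unadjusted p under 0.05 (lowest adjusted p 0.0660 with limma). The share of all tested genes at that unadjusted p with the block is not given here. In the same fit 5 proliferation genes in place of 4 had an adjusted p under 0.05, and the adjusted p of ZSWIM7 was 0.0766.

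Over all tested genes, 365 were called, 228 lower and 137 higher. The total was 217 (75 higher) with a pseudocount of 1, 55 (9 higher) with treat, 312 (115 higher) with the replicate block, and 193 (83 higher, without shNT replicate 2) to 394 (156 higher, without shNT replicate 1) with a library left out. Among the other repair genes, 0 in place of 1 had an adjusted p under 0.05 without a filter, with a pseudocount of 1, with median centring and with treat, 5 did after the GC correction, and 0 to 1 with a library left out. Where 1 passed with a library left out, and with the replicate block, it was MCM8 and not ZSWIM7. Among the proliferation genes the count of 4 became 0 with treat, 7 after the GC correction, 0 without genes of chromosome 20 (median 0.040) and 2 to 5 with a library left out. With 3 libraries per group and no deposited counts, differences smaller than the intervals given were not detectable.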
